A study of Mus musculus with 8 samples.

Results

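The REG lectins and the resistin-like molecule Retnlb are secreted proteins of the gut epithelium, and 8 of their genes were followed in the ileum of diabetic mice: Reg1, Reg2, Reg3a, Reg3b, Reg3d, Reg3g, Reg4 and Retnlb. They were chosen by gene symbol, each was measured by 1 probe set, and together they make up 8 of the 22206 probe sets of the array. The mice were male KKAy, an obese and diabetic strain that carries the yellow agouti allele, described as 14 weeks old and 30 g. All of them were on high-fat feed (45% of energy), started 4 weeks ahead of a treatment by daily gavage that lasted 8 weeks. One group of 4 mice received voglibose at 1 mg/kg, a drug that blocks carbohydrate-splitting enzymes of the gut surface, and the other group of 4 received the same volume of water. RNA came from about 4 cm of ileum per mouse, with 1 Affymetrix array each, and no lean or untreated strain was part of the comparison. Signals are log2 values, so a difference of 1 is a 2-fold change, and differences are given as voglibose minus water.

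REG proteins are small C-type lectins, and the family was first described in the regenerating pancreas. In the small intestine, Reg3b and Reg3g are made by enterocytes and Paneth cells, and Reg3g binds the peptidoglycan of Gram-positive bacteria and helps to keep them away from the epithelial surface. Their transcription responds to bacteria through MyD88 and to the cytokine IL-22 through STAT3. Retnlb (RELM-beta) is a product of goblet cells, best known from the colon, that acts on Gram-negative bacteria and is induced by the type 2 cytokine IL-13.

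In RefSeq (GRCm38.p6), 6 of the genes lie on chromosome 6 in the order Reg3b, Reg3d, Reg3a, Reg2, Reg1 and Reg3g, with only the pseudogene Gm52853 between the last pair. Reg4 lies on chromosome 3 and Retnlb on chromosome 16. Reg3b and Reg3g lie at the opposite ends of that cluster and varied together from mouse to mouse. The 250 bases before their transcription starts are shown 5′ to 3′ in the direction of each gene. The part of these sequences in the shared variation was not tested. Capitals mark runs of at least 10 bases that are identical between both when the sequences are aligned. The Reg3b sequence is chr6:78370635-78370884 (plus strand) and that of Reg3g is chr6:78468875-78469124 (minus strand).
Reg3b: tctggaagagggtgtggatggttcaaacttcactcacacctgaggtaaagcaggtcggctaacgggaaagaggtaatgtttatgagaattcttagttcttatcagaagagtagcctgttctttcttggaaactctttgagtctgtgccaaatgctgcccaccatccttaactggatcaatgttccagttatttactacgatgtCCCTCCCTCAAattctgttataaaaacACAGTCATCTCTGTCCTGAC
Reg3g: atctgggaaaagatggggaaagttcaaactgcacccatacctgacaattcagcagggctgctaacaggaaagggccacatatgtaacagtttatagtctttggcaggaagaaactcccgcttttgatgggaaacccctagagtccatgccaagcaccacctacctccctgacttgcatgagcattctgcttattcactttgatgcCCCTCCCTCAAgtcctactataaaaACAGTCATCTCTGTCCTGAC
The alignment holds 173 identical bases in 253 columns, an identity of 68.4%, while the other 20 pairs of the 7 members with a promoter sequence lie between 44.9% and 56.9%. The longest shared run, ACAGTCATCTCTGTCCTGAC, takes the 20 bases directly before both starts.

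The next lines give the 60 bases before the start of the other members with a promoter sequence. The letters TATAAA are in capitals, to show which of them share this exact form of the TATA element. Other forms of the element were not searched. Their positions are chr6:78425923-78425982 (plus) for Reg1, chr6:78405095-78405154 (plus) for Reg2, chr6:78380649-78380708 (plus) for Reg3a, chr6:78378866-78378925 (minus) for Reg3d and chr3:98222096-98222155 (plus) for Reg4.
Reg1: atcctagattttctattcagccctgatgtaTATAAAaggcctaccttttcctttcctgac
Reg2: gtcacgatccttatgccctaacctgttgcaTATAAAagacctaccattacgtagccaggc
Reg3a: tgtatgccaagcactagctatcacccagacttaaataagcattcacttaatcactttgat
Reg3d: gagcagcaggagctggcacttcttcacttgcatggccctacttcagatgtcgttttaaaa
Reg4: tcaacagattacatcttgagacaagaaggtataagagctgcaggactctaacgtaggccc
TATAAA, searched on both strands over 250 bases, was found in 4 of 7 members (Reg1, Reg2, Reg3b and Reg3g), and in 12.4% of 32851 mouse promoters of the same length. In these 4 genes it began 30, 30, 29 and 27 bases before the start, and Reg3g held it a further time on the minus strand. The STAT pattern TTCNNNGAA, which is its own reverse complement, was found in 2 of 7 members and 7.02% of all promoters. The match in Reg3b was TTCTTGGAA, 129 to 121 bases before the start, and the match in Reg3d was TTCCCAGAA, 238 to 230 bases before it. The wider spacing TTCNNNNGAA, the form linked to STAT6, was found in 1 of 7 members (Reg1, TTCTGGAGAA) and 5.85% of all promoters.

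Some of these mice stood apart before any comparison of the groups. Correlations between arrays ran from 0.982 to 0.994, and array medians from 5.89 to 5.94. Fabp6, the bile acid binding protein of the distal ileum, was 4.01 in water mouse 4 and 3.54 in voglibose mouse 2. Both values lay below the array lower quartiles (4.05 to 4.18), so these pieces lacked a defining marker of the labelled tissue. The other 6 mice were spread widely, from 8.14 to 17.50. Water mouse 4 and voglibose mouse 2 had the highest Gata4 (12.13 and 12.24) and Onecut2 (6.94 and 6.12; 4.12 to 4.75 in the other mice), regulators of the upper small intestine. In them the 8 markers of the proximal small intestine averaged 11.59 and 11.67, against 9.40 to 10.88 in the other mice. Of that list, Cybrd1 (5.66 and 6.39) and Lct (15.28 and 15.70) were not highest in them. Water mouse 2 lay at the other end, with Fabp6 at 17.50, the ileal hormone gene Fgf15 at 13.62 (4.92 to 8.79 in the others) and the lowest Gata4, at 9.41. Voglibose mouse 2 also carried pancreatic acinar transcripts: amylase Amy2a5 was 14.09 against 4.41 to 5.32 in the other mice, carboxypeptidase Cpa1 12.01 against 4.72 to 5.37 and chymotrypsinogen Ctrb1 11.17 against 2.64 to 3.31. Of 11 measured acinar markers, 10 were highest in that mouse, and the exception was Clps, which was bright in all 8 mice (12.60 to 15.22). In tissue of this kind, fewer cells of a type and less RNA per cell cannot be told apart.

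No member differed between the groups past the test over all genes. Adjusted p ran from 0.658 to 0.975 (limma, Benjamini-Hochberg over 22206 probe sets), and 0% of all probe sets passed, in this fit or when the variances were left unmoderated. In the fit, 5 members had higher and 3 had lower mean signal in voglibose mice, with a median difference of 0.29, beside 49.1% of all probe sets higher, 50.9% lower and a median of -0.01. At an unadjusted p under 0.05 and a fold over 1.2, 1 of 8 members was called, Reg2, where 7.52% of all probe sets were called. With water mouse 1 or water mouse 2 left out the count was 2, and with voglibose mouse 4 left out it was 0. With water mouse 4 left out the member called was Reg3d in place of Reg2, and with voglibose mouse 2 left out it was Reg4. Over all 22206 probe sets, 1671 had an unadjusted p under 0.05 with all mice (limma). That number was 1600, 1830 and 1405 without water mouse 1, 2 and 4, and 1306 and 1760 without voglibose mouse 2 and 4. In each of the 8 members the groups overlapped, whereas 4.35% of all probe sets had groups that did not overlap. With 4 mice against 4, the smallest exact permutation p is 0.0286, and the members' values ran from 0.114 to 0.600 (2-sided, group means).

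**Figure D1:**
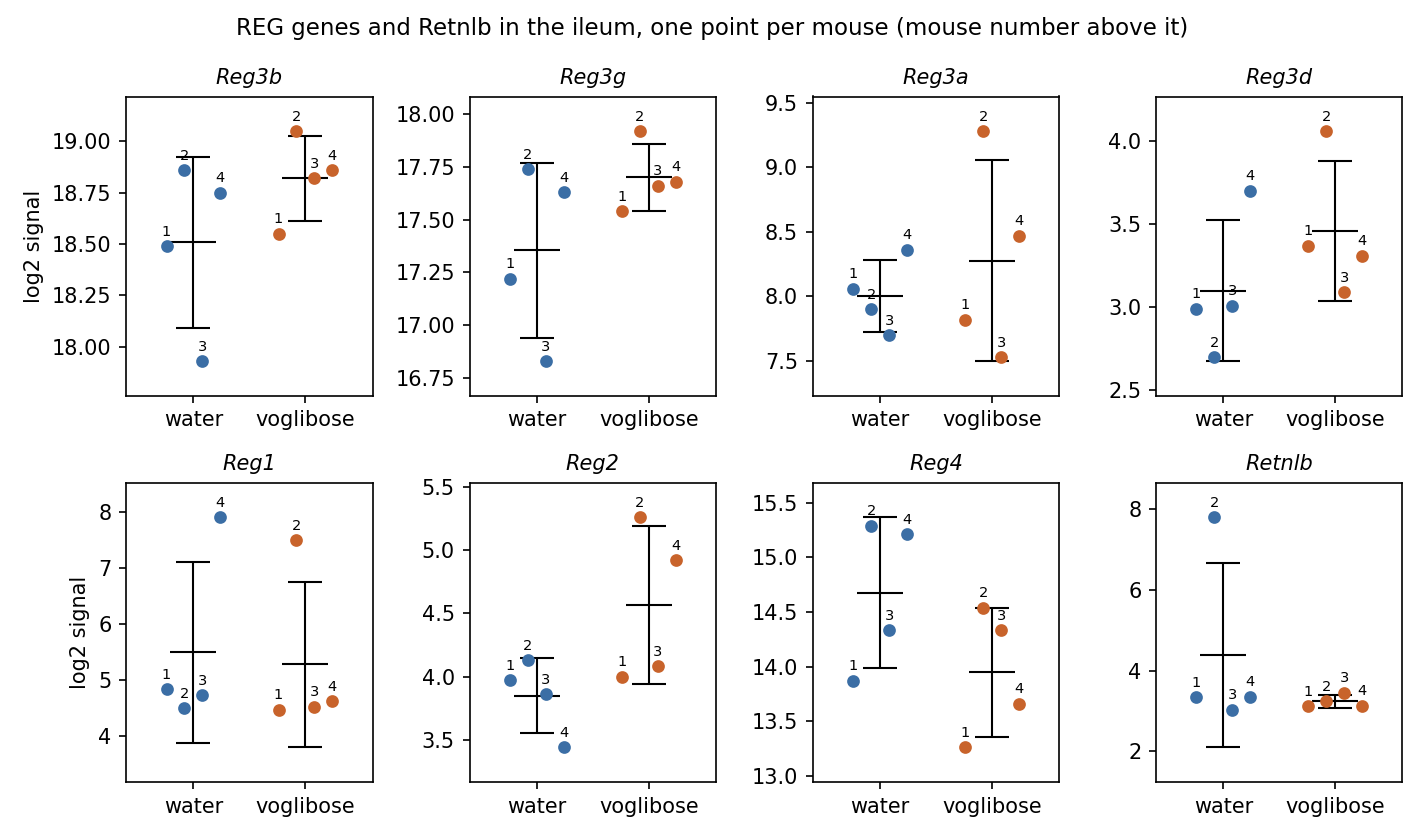
Log2 signal (y axes, scaled for each gene) of the 8 members in water and voglibose mice, with 1 point per mouse, its number above it, and the mean ± SD in black (n = 4). Reg1 is high in water mouse 4 and voglibose mouse 2, and Retnlb in water mouse 2 (7.80); in all 8 genes the groups overlap.

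Reg3b and Reg3g, the bactericidal lectins of the epithelium, gave very bright signals in every mouse. Reg3b was 18.49, 18.86, 17.93 and 18.75 in water mice 1 to 4 and 18.55, 19.05, 18.82 and 18.86 in voglibose mice 1 to 4. Water mouse 3 was the lowest of the 8 and voglibose mouse 2 the highest, with the other mice of both groups interleaved. The group means were 18.51 ± 0.42 and 18.82 ± 0.21 (SD, n = 4), a difference of 0.31 ± 0.21 (SE), or 1.24-fold, with a 95% interval from -0.15 to 0.77 (limma, adjusted p = 0.769). Reg3g was 17.22, 17.74, 16.83 and 17.63 in water mice 1 to 4 and 17.54, 17.92, 17.66 and 17.68 in voglibose mice 1 to 4. Again the lowest value came from water mouse 3 and the highest from voglibose mouse 2. Its difference of 0.35 ± 0.20 (SE), or 1.27-fold, had a 95% interval from -0.10 to 0.79 (limma, adjusted p = 0.731). The upper ends of both intervals correspond to 1.71-fold and 1.73-fold higher signal.

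The higher voglibose mean of both lectins drew on water mouse 3: without it the differences were 0.12 for Reg3b and 0.17 for Reg3g, and without water mouse 2 they were 0.43 and 0.47 (for Reg3g unadjusted p = 0.0399, adjusted p = 0.597, limma). The array maxima lay between 19.26 and 19.55 and the 99th percentiles between 16.25 and 16.31. Both lectins thus sat at the bright end of the scale, where signals can be compressed, and the part of this in the differences was not tested. The mean levels of marker lists of the cells that make these lectins overlapped between the groups. In each list of 10 genes, 1 gene had groups that did not overlap, where 4.35% of all probe sets had such groups. Neither gene had an unadjusted p under 0.05 (limma, Lyz1 0.204 and Mgam 0.169). The 10 Paneth cell markers averaged 15.49 to 15.88 in water and 15.40 to 15.81 in voglibose mice, and the lysozyme gene Lyz1 was 18.16 to 18.30 in water and 17.94 to 18.10 in voglibose mice, a difference of -0.17 ± 0.13 (SE). The 10 enterocyte markers averaged 17.20 to 17.73 in water and 17.59 to 17.84 in voglibose mice, and the maltase-glucoamylase gene Mgam was 18.01 to 18.33 and 18.38 to 18.58. The part of these markers in the lectin values was not tested.

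Reg3b and Reg3g went together across the mice. Over the 8 mice Pearson's r was 0.977 (exact permutation p = 4.96e-05, adjusted p = 0.00139 over 28 pairs of members) and Spearman's rho was 0.994 (exact permutation p = 9.92e-05, adjusted p = 0.00278). After subtraction of the group means r was 0.972, within water mice it was 0.982 and within voglibose mice 0.945. Without water mice 3 and 1, the mice farthest from the Reg3b median, r was 0.947. The signal of Reg3b minus that of Reg3g stayed between 1.01 (voglibose mouse 1) and 1.27 (water mouse 1). Probes of these related genes may share sequence, and the part of shared hybridization in this likeness was not tested. Of the 28 pairs, this was the only one past the adjusted threshold by either measure. As an example of a pair that rests on 2 mice, Reg1 and Reg3d gave r = 0.825 over 8 mice and -0.147 without water mouse 4 and voglibose mouse 2.

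**Figure D2:**
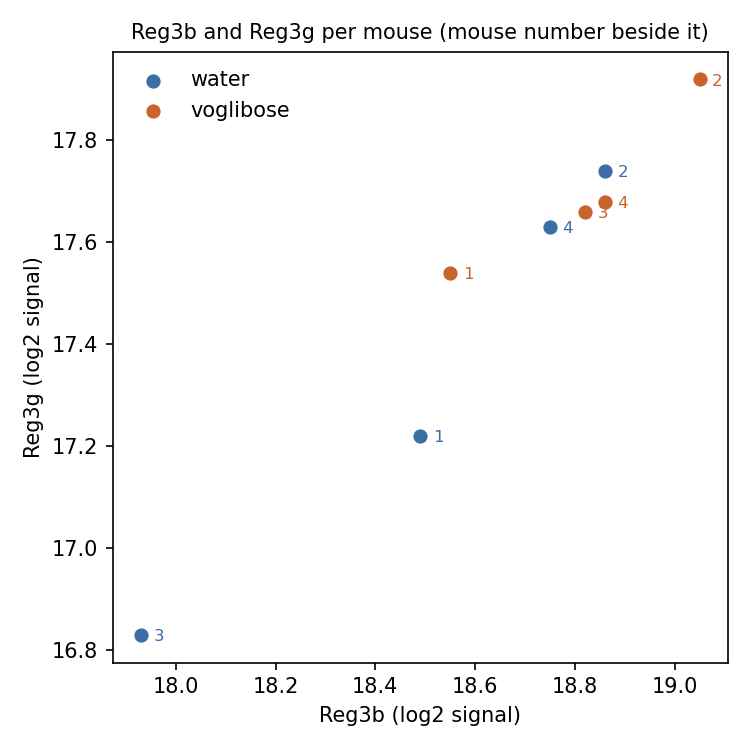
Reg3g (y axis) against Reg3b (x axis), both as log2 signal, with 1 point per mouse and its number beside it. The 8 mice lie close to 1 line (r = 0.977), from water mouse 3 at the lower left to voglibose mouse 2 at the upper right.

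Genes with a like pattern were sought among 10016 probe sets with 1 gene symbol and a mean above the median signal. Those whose pattern over the 8 mice was most like that of Reg3b were Brip1 (r = 0.958), Nrip3 (0.934) and Tnfrsf23 (0.917). For Reg3g they were Brip1 (0.961), Nrip3 (0.924) and Prpf31 (0.920). These values were picked as the highest of 10016 and are a description. Brip1, a DNA helicase of DNA repair, ranged only from 8.95 in water mouse 3 to 9.69 in water mouse 2.

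Reg3a and Reg3d, relatives inside the same cluster, had their highest values in the mouse with acinar transcripts. Reg3a was 8.06, 7.90, 7.70 and 8.36 in water mice 1 to 4 and 7.82, 9.28, 7.53 and 8.47 in voglibose mice 1 to 4. Voglibose mouse 2 lay above the other 7, which spanned 7.53 to 8.47. The difference of 0.27 ± 0.33 (SE; limma, adjusted p = 0.885) became -0.07 without that mouse. Reg3d, also known as the islet neogenesis associated protein-related gene, was 2.99, 2.70, 3.01 and 3.70 in water mice 1 to 4 and 3.37, 4.06, 3.09 and 3.31 in voglibose mice 1 to 4. All 8 values lay under the array lower quartiles or inside their range (4.05 to 4.18), close to background, where differences are understated. Its difference was 0.36 ± 0.25 (SE; limma, adjusted p = 0.780), 0.16 without voglibose mouse 2 and 0.56 without water mouse 4.

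Reg2, known from pancreatic acinar and islet cells, was the member with the smallest p. It was 3.97, 4.13, 3.86 and 3.44 in water mice 1 to 4 and 4.00, 5.26, 4.08 and 4.92 in voglibose mice 1 to 4. Voglibose mice 2 and 4 were above all others, and voglibose mice 1 and 3 lay within the range of the water mice. The difference was 0.72 ± 0.28 (SE), or 1.64-fold, with a 95% interval from 0.10 to 1.33 (limma, unadjusted p = 0.0270, adjusted p = 0.658; exact permutation p = 0.114). Without voglibose mouse 2, whose sample held acinar transcripts, it was 0.48 (unadjusted p = 0.0831), and without water mouse 4 as well it was 0.35 (unadjusted p = 0.195). Without water mouse 4 alone it was 0.58 (unadjusted p = 0.0772) and without voglibose mouse 4 it was 0.60 (unadjusted p = 0.0784). In voglibose mouse 4, with Reg2 at 4.92, the acinar list without Clps averaged 4.72, beside 4.73 in voglibose mouse 1 and 8.91 in voglibose mouse 2. The part of acinar RNA in the Reg2, Reg3a and Reg3d differences was not tested beyond leaving that mouse out. All values but those of voglibose mice 2 and 4 were within or below the range of the array lower quartiles, and all 8 lay below the array medians.

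Reg1, a lectin of the pancreas and gut, was high in 1 mouse of each group. It was 4.83, 4.50, 4.73 and 7.91 in water mice 1 to 4 and 4.47, 7.50, 4.52 and 4.62 in voglibose mice 1 to 4. The other 6 mice spanned 4.47 to 4.83, below the array medians (5.89 to 5.94), while water mouse 4 and voglibose mouse 2 were high. These were the mice without Fabp6 signal and with the highest Gata4, Onecut2 and Gip (11.74 and 11.71; 9.36 to 10.84 in the others). The acinar list without Clps averaged 4.56 in water mouse 4, beside 4.48 to 4.69 in the other water mice, and 8.91 in voglibose mouse 2. The part of gut region or of acinar RNA in the high Reg1 values was not tested. The group difference of -0.22 ± 0.82 (SE; limma, adjusted p = 0.975) was 0.59 without water mouse 4, -0.96 without voglibose mouse 2 and -0.15 without both.

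**Figure D3:**
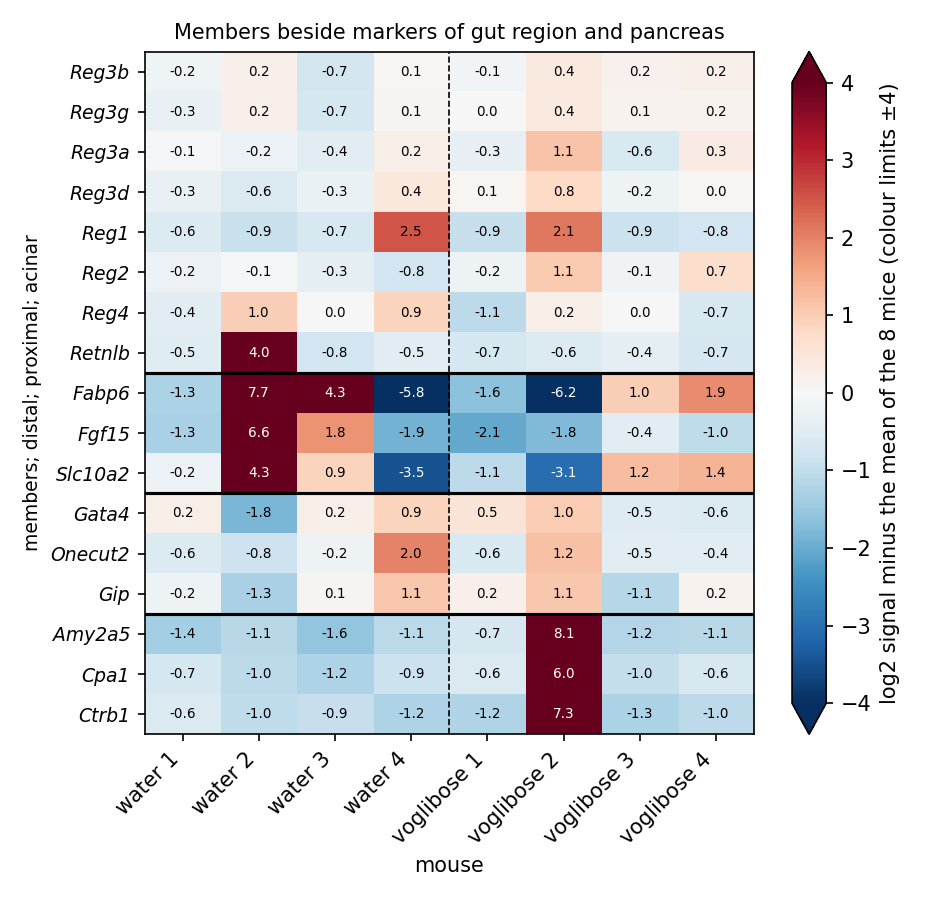
Log2 signal minus the mean of the 8 mice, by mouse (columns, water left of the dashed line), for the members and for markers of the distal ileum (Fabp6, Fgf15, Slc10a2), the proximal small intestine (Gata4, Onecut2, Gip) and pancreatic acinar cells (Amy2a5, Cpa1, Ctrb1). Retnlb is high in the mouse with the highest distal markers (water mouse 2), Reg1 is high in both mice with the lowest Fabp6, and voglibose mouse 2 alone has high acinar markers.

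Reg4, a lectin of secretory and endocrine epithelial cells, was the only member bright in every mouse whose mean signal was lower in voglibose mice. It was 13.87, 15.29, 14.33 and 15.21 in water mice 1 to 4 and 13.26, 14.54, 14.33 and 13.66 in voglibose mice 1 to 4. Water mice 2 and 4 lay above all voglibose mice, voglibose mice 1 and 4 lay below all water mice, and the rest overlapped. The means were 14.68 ± 0.69 and 13.95 ± 0.59 (SD, n = 4), a difference of -0.73 ± 0.36 (SE), with a 95% interval from -1.51 to 0.05 (limma, unadjusted p = 0.0653, adjusted p = 0.673). With 1 mouse left out it lay between -1.0 (water mouse 1 absent) and -0.50 (voglibose mouse 1 absent), and it kept its sign with each mouse left out. Water mice 2 and 4, with the highest Reg4, had distal marker means of 14.06 and 9.15, and the part of gut region was not tested. Of the 10 goblet markers 7 were lower and 3 higher in voglibose mice, with a median difference of -0.12 (Spink4 -0.35, Muc2 0.40), and they averaged 14.77 to 15.70 in water and 14.71 to 15.56 in voglibose mice. The 9 measured enteroendocrine markers averaged 8.35 to 8.71 and 8.34 to 8.84. The part of either cell type in the Reg4 difference was not tested.

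Retnlb stood above the lower quartile in 1 mouse only. It was 3.34, 7.80, 3.03 and 3.36 in water mice 1 to 4 and 3.12, 3.25, 3.45 and 3.13 in voglibose mice 1 to 4. Water mouse 2 was high and the other 7 mice lay below the range of the lower quartiles, near background. The difference of -1.15 ± 0.85 (SE; limma, adjusted p = 0.795) was -0.01 without water mouse 2. That mouse had the highest mean of the distal markers, 14.06 against 9.07 to 12.06 in the others, of the colon markers, 9.18 against 8.55 to 8.85, and of smooth muscle markers, 14.36 against 11.11 to 13.43. Of the 4 measured colon markers, Car4 (13.40) and Slc26a3 (15.35) were highest there, while Car1 (3.52) and Aqp8 (4.45) were dim and not highest. Water mouse 2 also had the highest means of tuft cell markers (5.51 against 4.83 to 5.16), Paneth cell markers (15.88 against 15.40 to 15.81) and goblet markers (15.70 against 14.71 to 15.56). Not highest there were Trpm5, Il25 and Avil (tuft), Lyz1 and all listed Defa genes (Paneth), and Muc2, Fcgbp, Zg16 and Sytl2 (goblet). Its means of lymphocyte markers (8.13 against 9.06 to 9.70) and enterocyte markers (17.20 against 17.59 to 17.84) were the lowest. Of the lymphocyte markers, Il23r and Jchain were not lowest there. The part of these in the Retnlb value was not tested. The genes most like Retnlb over the 8 mice were Pla2g4c, a phospholipase A2 (r = 0.994, 15.92 in water mouse 2 and 4.41 to 5.55 in the others), Arsk (0.986) and the sialyltransferase St3gal4 (0.985, 8.77 against 6.36 to 6.76). With 1 mouse apart, these correlations say only that the same mouse was high. The genes compared needed a mean above the median signal, and Pla2g4c met this only through water mouse 2. Its values in the other mice lay below the array medians (5.89 to 5.94). The related gene Retnla was highest in that mouse too, at 6.16 against 3.10 to 4.15, while Retnlg was highest in voglibose mouse 3 (12.53).

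**Figure D4:**
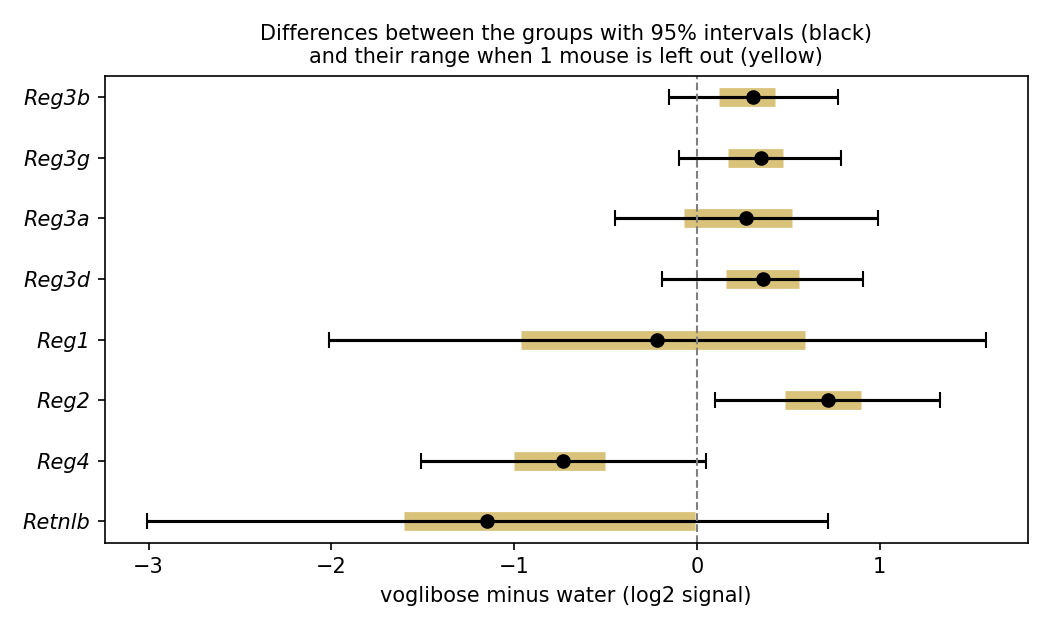
Difference of voglibose minus water (x axis, log2 signal) for each member, with its 95% interval from limma (black) and the range of the difference when 1 mouse is left out (yellow). The interval of Reg2 (0.10 to 1.33) does not reach 0, and the yellow ranges of Reg1 and Reg3a cross 0.

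Genes linked to the induction of REG and RELM proteins were examined as a list, the inducer list, of which 32 of 34 were measured. It held cytokines, receptors, sensors, signalling genes and transcription factors. This list was not sorted by direction of action, so its counts of higher and lower genes are a description. In it 19 had higher and 13 lower signal in voglibose mice, with a median difference of 0.03, and 0 passed over all genes (limma, adjusted p from 0.658 to 0.997). At an unadjusted p under 0.05 there were 1 higher and 1 lower gene, where 3.08% and 4.44% of all probe sets lay. The lower one was Il13ra1, a receptor chain for IL-13, at 14.63, 14.67, 14.58 and 15.15 in water mice 1 to 4 and 14.45, 14.31, 14.33 and 14.32 in voglibose mice 1 to 4. The groups did not overlap, as in 4.35% of all probe sets. The difference was -0.41 ± 0.16 (SE; limma, unadjusted p = 0.0253, adjusted p = 0.658) and -0.27 without water mouse 4. The higher one was the cytokine Il13 itself, dim at 3.27 to 3.89 in water and 3.64 to 4.40 in voglibose mice, with a difference of 0.49 ± 0.20 (SE; unadjusted p = 0.0319, limma). Each count of 1 was lost in some refits: both without voglibose mouse 4, that of Il13ra1 also without water mouse 4 or voglibose mouse 2, and that of Il13 also without water mouse 3 or voglibose mouse 1. The kinase Jak1, which signals for IL-22 and IL-13 receptors, differed by 0.32 ± 0.15 (SE) and the lipopolysaccharide receptor Tlr4 by -0.38 ± 0.23. Il22 was dim in all mice (3.45 to 4.08) and differed by -0.20 ± 0.16.

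A list of related effectors and partners, with the other RELM genes, antibacterial proteins of the epithelium and the proposed REG receptor Extl3, had 10 of 13 genes measured, 4 higher and 6 lower, with a median difference of -0.09. None had an unadjusted p under 0.05 with all mice (limma, smallest 0.365), so 0 of 10 were called where 7.52% of all probe sets were. The 4 with the smallest p were Retnlg (-0.65 ± 0.69, SE), the flagella-binding Lypd8 (-0.11 ± 0.14), the lectin intelectin Itln1 (-0.10 ± 0.13) and Cap1 (-0.08 ± 0.12). Retnlg was -1.44 without voglibose mouse 3. The fucosyltransferase Fut2, an IL-22 target, was highest in water mouse 2 (7.62 against 4.58 to 6.47), and its difference of 0.31 ± 0.55 (SE) was 0.97 without that mouse; each of these 2 genes had an unadjusted p under 0.05 in that refit.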

How the data were processed

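Biotinylated cDNA from 250 ng of total RNA was hybridized to 1 Affymetrix array per mouse, per the labels' protocols. The authors deposited log2 signals per probe set, to 2 decimals. RMA (background correction, quantile normalization and summarization) and the Transcriptome Analysis Console were used, per the submitters' processing notes, with no versions. The log2 scale was read from the deposited values (2.09 to 19.55). The labels state neither the settings nor the build behind the probe mapping, nor when or on what slides arrays were run, and a batch was not tested. Normalization across arrays hides a change in total RNA. Their number limits the precision, with a median SE of 0.18.

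All 22206 probe sets entered limma 3.58.1 in R 4.3.3 (lmFit, eBayes), 2-sided, without a filter, with Benjamini-Hochberg adjustment over all of them and calls at 0.05; the variance after moderation had 11.1 degrees of freedom. Of the probe sets, 19572 had 1 gene symbol, 0 had several and 2634 none. Members matched RefSeq by gene identifier (8 of 8), and promoter sequences came from RefSeq (GRCm38.p6) for 7. Permutation tests used scipy 1.17.1 and were exact. The fit was tested on simulated data with independent normal noise, and changes were placed only in probe sets above the median signal. That test did not cover changes in dim genes or mice that stand apart.

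Groups and mouse numbers came from the labels, which describe 4 mice per group. Same-numbered mice did not deviate together over all probe sets (correlations of 0.015, -0.324, 0.0141 and -0.184 for numbers 1 to 4), so they were not treated as pairs. The members, marker and gene lists were chosen with earlier results of these data known. The genes named are all members, up to 4 genes with the smallest p in each list, the 3 genes most like Reg3b, Reg3g and Retnlb, and markers of cell type and region. Mice that stand apart, and Il22, Fut2, Retnla and the region markers beside them, were named after their values were seen. Alternatives were another scaling, variance models, array weights, a filter on dim probe sets, the mean of probe sets, a block, and leaving out mice.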

Additional observations from a re-analysis of the deposited data

Results flagged for a closer look

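Within groups of 4, a value was singled out where its gap to the nearest mouse took a larger share of the group's range than Dixon's 95% critical value, which chance does in about 1 of 20 groups. Among the 16 groups of member values, 3 were singled out. Reg1 in water mice was set apart by water mouse 4 (7.91), whose gap took 0.903 of the range, and Reg1 in voglibose mice by voglibose mouse 2 (7.50), at 0.950. Retnlb in water mice was set apart by water mouse 2 (7.80), at 0.931.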

How the results depend on the processing

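The median difference of the 8 members (0.29) moved by less than the spread between mice in every refit that kept all 8, and ran from 0.05 to 0.42 (without voglibose mouse 2 and without water mouse 4) when 1 mouse was left out. No member had an adjusted p under 0.05 in any refit. The direction of Reg2, Reg3b, Reg3d, Reg3g, Reg4 and Retnlb held in each refit that included them. For Retnlb only the sign held, since its difference of -1.15 was -0.01 without water mouse 2. Leaving out 1 mouse gave -0.96 to 0.59 for Reg1 and -0.07 to 0.52 for Reg3a, with a reversed sign without 1 of several mice for Reg1 and without voglibose mouse 2 for Reg3a. The 1 member called at an unadjusted p under 0.05 became 0 without moderation of the variance and 0 among bright probe sets, where Reg2 was not tested. It ran from 0 to 2 when 1 mouse was left out, and was 0 without both water mouse 4 and voglibose mouse 2. Over all 22206 probe sets, the count under this p was 1671 in the main fit and 1560 without moderation. It was 1019 of 11333 bright probe sets, 969 to 1906 of 22206 with 1 mouse left out, and 1144 without both of the named mice. The count of 2 in the inducer list was 1 among bright probe sets, 1 without both of these mice, and 0 to 2 when 1 mouse was left out, and that of 0 in the effector list ran from 0 to 1. With the replicate block the members called were 2 (Reg2 and Reg4, adjusted p = 0.724) and the inducer genes called were 1, but the numbers did not pair the mice. With that block 1529 of all 22206 probe sets had an unadjusted p under 0.05 (limma). Signals near background (Reg2, Reg3d, Retnlb), or below the array medians in 6 mice (Reg1), limit what can be seen of these genes.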
